A study of Caenorhabditis elegans with 2 samples.

Results

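The genes described here are the 8 genes cct-1 to cct-8, which encode the subunits of the cytosolic chaperonin CCT (also called TRiC) of the nematode Caenorhabditis elegans. They were taken by symbol from the Ensembl annotation of WBcel235 (ce11), and are 8 of its 19973 protein-coding genes on nuclear chromosomes. Chromatin immunoprecipitation followed by sequencing (ChIP-seq) mapped the nuclear hormone receptor NHR-90 in whole L1 larvae, collected 6 h after synchronisation by starvation. Both samples, biological replicates 1 and 2, are hermaphrodites of the strain OP483 (unc-119(tm4063) III; wgIs483), an unc-119 mutant whose transgene carries NHR-90 with GFP and FLAG at its C terminus. Chromatin was sheared by sonication and precipitated through the GFP tag. The labels do not name the promoter of the transgene. Since whole animals were used, peaks cannot be assigned to cell types, and an untagged strain or control library is not analysed here. Nothing says whether the replicates were grown separately beyond the word biological, so their spread may be partly technical.

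The lists used were each replicate's candidate peaks with background (27854 in replicate 1 and 26708 in replicate 2), 30000 candidates called on the pooled replicates, and the 4133 peaks that the authors kept by their threshold on reproducibility, called optimal here, which are the pooled peaks of highest signal. The signal of a peak is the authors' value on an unstated scale, so ranks by signal within a list (1 is the strongest) are given beside it. The lists hold no read counts: sequencing depth is unknown, and no counting error can be given. Genes are called bound here if their promoter window, which reaches 1000 bp upstream and 200 bp downstream from each transcript's annotated 5′ end, held an optimal summit, a rule that lets several genes count the same summit. Genes are not replicates, and all values come from 1 group of 2 replicates, so counts are given beside the share of all protein-coding genes with no test.

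CCT is a double ring of paralogous subunits that encloses newly made proteins and folds them with energy from ATP. Actin and tubulin are its best known clients, and many proteins with WD repeats depend on it too. Prefoldin hands unfolded actin and tubulin to CCT, and cofactors downstream assemble the tubulin dimer. Work in yeast and mammals divides each ring by nucleotide binding: the subunits CCT1, CCT2, CCT4 and CCT5 bind ATP tightly, and CCT3, CCT6, CCT7 and CCT8 weakly. In worms the complex is needed for growth, and raised levels of cct-8 have been linked to long life.

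The DNA under the peaks is shown first, since the positions and letters below refer to it. Each run is the 101 bases centred on the pooled summit, taken from RefSeq's genome of WBcel235 (ce11), read 5′ to 3′ on the strand of the CCT gene. Capitals mark the letters TTCNNGAA or GAANNTTC, arrangements of the repeated unit to which heat shock factor binds, where a search found them. The windows are cct-1 (chrII:8185158-8185258, plus strand), cct-2 (chrII:8927373-8927473, plus), cct-4 (chrII:8283397-8283497, plus), cct-5 (chrIII:4508519-4508619, minus), cct-6 (chrIII:5855904-5856004, minus), cct-7 (chrV:1871950-1872050, plus) and cct-8 (chrIV:1094314-1094414, minus). No pooled summit lay in the window of cct-3, so none is shown for it.
cct-1: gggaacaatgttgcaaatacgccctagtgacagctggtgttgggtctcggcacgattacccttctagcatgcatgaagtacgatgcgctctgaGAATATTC
cct-2: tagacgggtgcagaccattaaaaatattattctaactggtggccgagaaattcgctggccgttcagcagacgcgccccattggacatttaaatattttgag
cct-4: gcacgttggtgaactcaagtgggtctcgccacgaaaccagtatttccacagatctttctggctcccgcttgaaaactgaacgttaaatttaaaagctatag
cct-5: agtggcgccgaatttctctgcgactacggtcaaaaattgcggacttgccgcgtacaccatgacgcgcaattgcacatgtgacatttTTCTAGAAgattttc
cct-6: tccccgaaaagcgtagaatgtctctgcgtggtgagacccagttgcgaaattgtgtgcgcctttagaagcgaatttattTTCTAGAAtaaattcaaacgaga
cct-7: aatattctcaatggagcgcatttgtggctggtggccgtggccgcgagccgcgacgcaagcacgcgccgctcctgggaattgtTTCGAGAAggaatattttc
cct-8: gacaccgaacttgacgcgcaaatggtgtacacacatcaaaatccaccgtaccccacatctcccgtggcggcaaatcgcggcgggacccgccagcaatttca

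Of the 8 CCT genes 6 were bound, cct-1, cct-2, cct-5, cct-6, cct-7 and cct-8, against 14.7% of all protein-coding genes. When a summit counted for its closest 5′ end alone, 2 were bound (12.4% of protein-coding genes), of which cct-2 kept its promoter peak. For cct-7 the summit was another, 3484 bp downstream of its 5′ end. That summit lies past the 3′ end of cct-7, in an untranslated exon of zig-11, and outside the promoter window. The bound genes covered a wide range of strength: cct-1 and cct-8 ranked 65 and 149 of the 4133 optimal peaks, while the other 4 ranked between 1458 and 2978. The median signal of the bound members was 146.9, close to the median of 143.5 over the 2927 bound protein-coding genes. A candidate peak of any strength in the pooled list was present for 7 of the 8, against 45.4% of protein-coding genes. It was present for 7 in replicate 1, against 44.4%, and for 8 in replicate 2, against 42.9%. Among each replicate's 4133 strongest peaks, 5 CCT genes had one in replicate 1 (14.7% of protein-coding genes) and 6 in replicate 2 (14.3%).

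**Figure D1:**
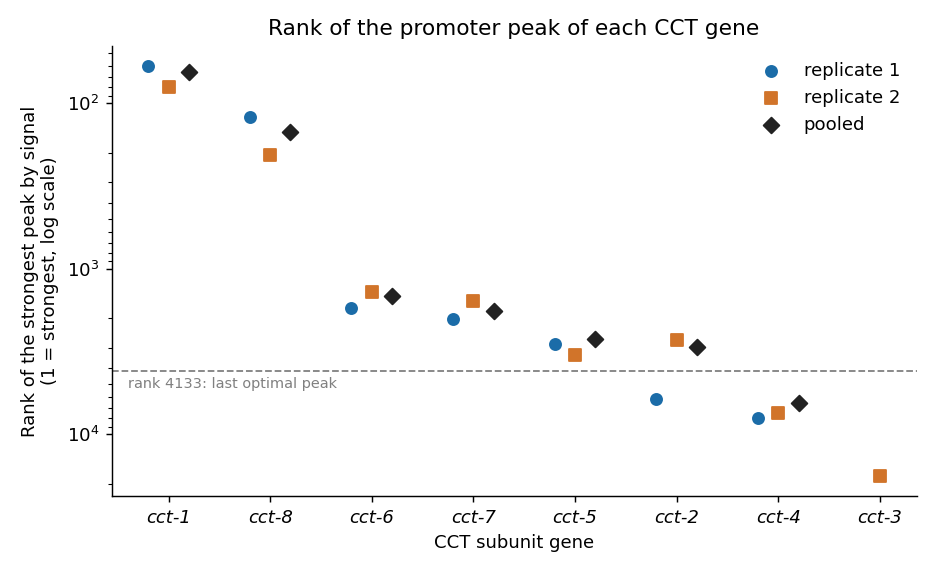
Rank by signal (log scale, strongest at the top) of the strongest peak in the promoter window of each CCT gene, in each replicate's candidate list and in the pooled list. The dashed line is rank 4133, the last optimal peak: cct-1 and cct-8 lie far above it in all 3 lists, cct-2 crosses it in replicate 1 (rank 6099), cct-4 lies below it, and cct-3 has a point in replicate 2 alone.

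Among the subunits that bind ATP tightly, cct-1, cct-5 and cct-2 were bound and cct-4 was not. The gene for the alpha subunit, cct-1 (WBGene00000377, II, 8185443 to 8187601), had a peak at 8185065 to 8185340 with a pooled signal of 701.8. Its signal was 381.1 in replicate 1 and 316.6 in replicate 2, with ranks 60 and 80, so it was among the strongest peaks of both. This is the highest place of any CCT gene in all 4 lists.

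The epsilon gene cct-5 (WBGene00000380, III, 4499188 to 4508114) had a much weaker peak at 4508369 to 4508768, with a pooled signal of 100.4 and rank 2654. Its signal was 48.7 in replicate 1 (rank 2865) and 43.5 in replicate 2 (rank 3309). A second, very weak candidate further upstream was listed in replicate 1 alone, at rank 25881. The beta gene cct-2 (WBGene00000378, II, 8927741 to 8929815) was the weakest bound member, with a peak at 8927223 to 8927622, a pooled signal of 91.2 and rank 2978. Its replicates stood apart: the signal was 26.8 at rank 6099 in replicate 1 and 51.1 at rank 2707 in replicate 2, so it was outside the 4133 strongest peaks of replicate 1. The call for cct-2 thus rests on replicate 2 and on the pooled peak.

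The delta gene cct-4 (WBGene00000379, II, 8283667 to 8285711) was below the authors' threshold, as the one member with a pooled candidate that was not bound. Its pooled candidate at 8283247 to 8283646 had a signal of 47.1 and rank 6510, where the lowest optimal signal was 69.4. The −log10 q-value of this candidate was 1.88, where the optimal peaks at the CCT genes each had 3.99. That is the highest value in the pooled and optimal lists, so it does not separate strong peaks. Both replicates listed it, at a signal of 22.1 and rank 8011 in replicate 1 and 23.6 and rank 7466 in replicate 2. These ranks are close, but candidate lists reach into background. Of protein-coding genes, 44.4% had a candidate in replicate 1 and 42.9% in replicate 2. The nearest optimal summit was 19909 bp from its 5′ end.

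Among the subunits that bind ATP weakly, cct-8, cct-6 and cct-7 were bound and cct-3 was not. The theta gene cct-8 (WBGene00021934, IV, 1087108 to 1093920) had a peak at 1094234 to 1094499 with a pooled signal of 514.6. Its signal was 293.6 in replicate 1 (rank 122) and 216.4 in replicate 2 (rank 207), the second place among the CCT genes in both.

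The zeta gene cct-6 (WBGene00000381, III, 5853530 to 5855687) had a narrow optimal peak of 115 bp at 5855904 to 5856018, with a pooled signal of 156.5 and rank 1458. Its signal was 72.1 in replicate 1 (rank 1733) and 82.0 in replicate 2 (rank 1385). The replicates listed it as wider peaks of 380 and 390 bp, the median widths of their lists. The eta gene cct-7 (WBGene00020391, V, 1872246 to 1875505) had a peak at 1871800 to 1872199 with a pooled signal of 137.3 and rank 1806. Its signal was 65.4 in replicate 1 (rank 2004) and 75.7 in replicate 2 (rank 1566), so cct-6 and cct-7 lay side by side in the middle of the optimal list, at the percentiles 64.7 and 56.3 of its signal.

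The gamma gene cct-3 (WBGene00018782, II, 2233540 to 2243539) had no summit in its window in the optimal, pooled or replicate 1 list. The nearest pooled summit was 4937 bp from its 5′ end and the nearest optimal one 145231 bp away. In replicate 2 a candidate at 2233423 to 2233812 had its summit 78 bp downstream of the 5′ end, in a coding exon, with a signal of 13.3, rank 17854 of 26708 and a −log10 q-value of 0.17. Its 10000 bp span held 3 pooled summits, none of them optimal.

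The 6 optimal peaks lay upstream of the CCT 5′ ends, at 235 bp for cct-1, 318 bp for cct-2, 455 bp for cct-5, 267 bp for cct-6, 246 bp for cct-7 and 444 bp for cct-8. Their median distance was 292 bp, against 232 bp over all bound protein-coding genes, of which 94.1% had their strongest summit upstream. Over bound genes with a close coding neighbour on the other strand the median distance was 210 bp. The summit was intergenic at 5 of the 6 CCT genes. At cct-7 it fell in the noncoding RNA gene T10B5.13, whose own 5′ end was 20 bp away. Annotated 5′ ends of worm genes are often sites of trans-splicing, so the true starts of transcription may lie further upstream.

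All 8 CCT genes stand back to back with a protein-coding gene on the other strand, their 5′ ends at most 1200 bp apart, an arrangement found for 4026 or 20.2% of protein-coding genes. The distance between the 5′ ends ran from 331 bp at cct-6 to 1190 bp at cct-2, with a median of 540 bp against 541 bp over all such genes. Of protein-coding genes with such a neighbour 29.9% were bound, and the count of 6 CCT genes out of 8 is to be read beside that value too. This background was added after the peaks were seen.

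Each of the 6 optimal peaks at CCT genes was also in the window of that neighbour, as 5′ ends this close make likely with a window of 1000 bp. Among bound protein-coding genes with such a neighbour, 1159 of 1203 (96.3%) shared their strongest peak with a coding gene on the other strand, a background added after the peaks were seen, so the count of 6 is no result about the CCT genes. The neighbour's 5′ end was the nearer one at 5 of the 6. The summit at cct-1 was 185 bp upstream of mig-5, a Dishevelled protein of Wnt signalling, and the one at cct-8 was 177 bp upstream of Y55F3AR.2, annotated by RefSeq as a thioredoxin domain protein. At cct-6 it was 64 bp upstream of the longer transcript of alh-9, an aldehyde dehydrogenase (the shorter one starts too far downstream to count), and at cct-5 286 bp upstream of F25F2.1, which RefSeq annotates with a protein kinase domain. At cct-7 it was 193 bp upstream of T10B5.4, annotated as an N-acetyltransferase. At cct-2 the CCT gene was nearer, with the 5′ end of B0457.2 872 bp away. The weak candidate at cct-4 lay about midway, 220 bp from cct-4 and 239 bp from nst-1, the worm nucleostemin. Which gene of a pair, if either, a peak acts on was not tested.

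**Figure D2:**
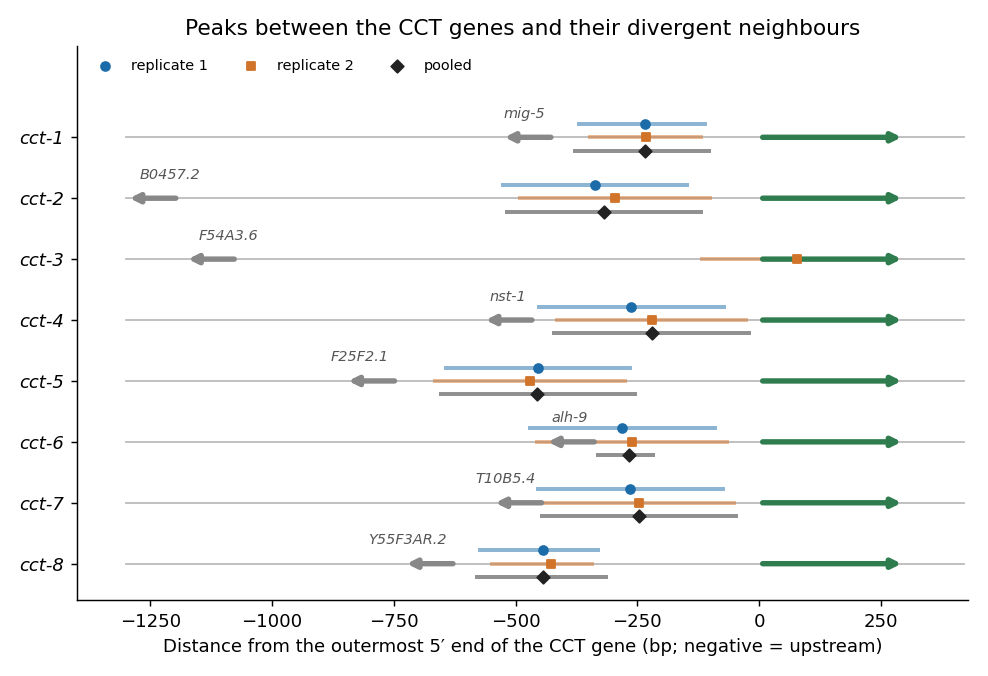
Strongest peak of each CCT gene (bar) and its summit (symbol) in each replicate and in the pooled list, by distance in bp from the outermost 5′ end of the CCT gene (green arrow, direction of transcription), with the 5′ end of the neighbour on the other strand (grey arrow). Summits lie between the 5′ ends at 7 of the 8 genes, and at cct-3 the single candidate of replicate 2 lies 78 bp inside the gene.

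The summits of the replicates were close together. They were 3 bp apart at cct-1, 16 bp at cct-8, 17 bp at cct-5, 18 bp at cct-7, 20 bp at cct-6, 41 bp at cct-2 and 42 bp at cct-4. These 7 include the candidate at cct-4, which is not an optimal peak. The median distance over the 7 was 18 bp, against 20 bp over the 4121 optimal peaks matched in both replicates. The ranks of a member differed between the replicates by a median of 1.28 times, against 1.34 times over the same optimal peaks. The largest difference was at cct-2, 2.25 times, and 91.9% of optimal peaks differed by no more. Across the 7 genes the ranks of the replicates had a Spearman's rho of 0.964, a description over peaks that share both libraries.

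The windows of 101 bases printed above were searched for 6 short motifs on either strand. The letters TTCNNGAA were present at 3 of the 7 summits, cct-5, cct-6 and cct-7, against 3.92% of all optimal summits and 7.37% of equally wide windows centred on the 5′ end of each protein-coding gene. In windows centred 250 bp upstream of those 5′ ends, a position chosen after the peaks were seen, the share was 6.60%. The matches read TTCTAGAA at cct-5 and cct-6 and TTCGAGAA at cct-7, and their centres lay 39, 31 and 35 bp from the summit, in each case on the side of the CCT gene. The reversed arrangement GAANNTTC was present at cct-1 alone, as GAATATTC with its centre 46 bp from the summit, against 3.94% of optimal summits and 6.67% of the 5′ end windows. In the windows centred 250 bp upstream its share was 7.11%. Within 100 bp of the summit TTCNNGAA was present at 5 of the 7 genes (with cct-2 and cct-4 added), against 8.57% of optimal summits, and GAANNTTC at 3 (cct-1, cct-7 and cct-8), against 8.81%. In the narrower search the 5′ end windows and the windows 250 bp upstream had higher shares than the optimal summits, for both motifs. Neither share was computed at this width. A match is a run of letters, and whether a factor binds there was not tested.

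The other 4 motifs were at none of the 7 summits. They were GAGAGA, found at 23.2% of optimal summits (7.34% of the 5′ end windows), GAGACGCAG, the site of EOR-1 (7.26% and 0.546%), the E-box CACGTG (8.13% and 1.86%), and AGGTCA, typical of nuclear receptors (4.21% and 2.38%). Within 100 bp they were again at none of the 7, against 35.4%, 10.4%, 11.3% and 7.40% of optimal summits. The G and C content of the windows ran from 42.6% at cct-6 to 57.4% at cct-8 with a median of 47.5%, against a median of 44.6% over all optimal summits, whose 5th to 95th percentiles are 31.7% and 57.8%.

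The genes of the partners and clients of CCT were listed by function. Of the 6 prefoldin genes 5 were bound: pfd-1 (signal 374.9, rank 328), pfd-4 (275.6, rank 588), pfd-5 (260.2, rank 655) and 2 others. The gene pfd-2, named after its value was seen, had a pooled candidate at rank 18307. The cytosolic Hsp70 and Hsp90 machinery had 9 of 13 bound, led by the chaperone gene hsp-90 (919.2, rank 30), the Hsp70 nucleotide exchange factor gene bag-1 (643.1, rank 86) and the Hsp70 gene hsp-1 (632.4, rank 90). The mitochondrial chaperonin gene hsp-60, a distant relative of the CCT subunits, was bound at a signal of 874.3 and rank 37. The background over all protein-coding genes is the same 14.7%. As at the CCT genes, a coding neighbour on the other strand was common in part of these lists: 8 of the 13 Hsp70 and Hsp90 genes and hsp-60 had one, beside 2 of the 6 prefoldin genes, and for genes with such a neighbour the background is 29.9%.

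Among clients, 3 of 5 actin genes were bound, act-2 (149.3, rank 1587), act-4 (127.3, rank 1981) and act-5 (94.0, rank 2876), of which act-2 was above and the others below the median signal of bound genes. Worm actin genes are closely related, and how reads were divided among similar sequences is not stated, so values at actins may be uncertain. How alike the sequences under their peaks are was not examined. Of 16 tubulin genes 3 were bound, the alpha tubulin gene tba-2 (427.5, rank 236), the gamma tubulin gene tbg-1 (236.8, rank 779) and the beta tubulin gene tbb-1 (97.7, rank 2748), a share of 18.8% that is near the background. The tubulin folding cofactors had 3 of 7, tbcd-1 (141.7), tbcb-1 (102.8) and coel-1 (76.0), against the same background of 14.7%. None of the 4 genes fzy-1, fzr-1, gpb-1 and gpb-2, whose WD-repeat counterparts in yeast or mammals are CCT clients, was bound; the pooled candidates of fzr-1, gpb-1 and fzy-1 had ranks 4945, 5062 and 13182. Over these 7 lists together 24 of 52 genes were bound, or 46.2%, against 14.7% of all protein-coding genes. When a summit counted for its closest 5′ end alone, 14 were, against 12.4% of protein-coding genes. Subunits of the proteasome, another large complex of protein homeostasis, had 23 of 33 bound, against the same 14.7%, at a median signal of 121.2. Of the 33, 21 stood beside a coding gene on the other strand, and for genes with such a neighbour the background is 29.9%. The differences between these lists were not tested.

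**Figure D3:**
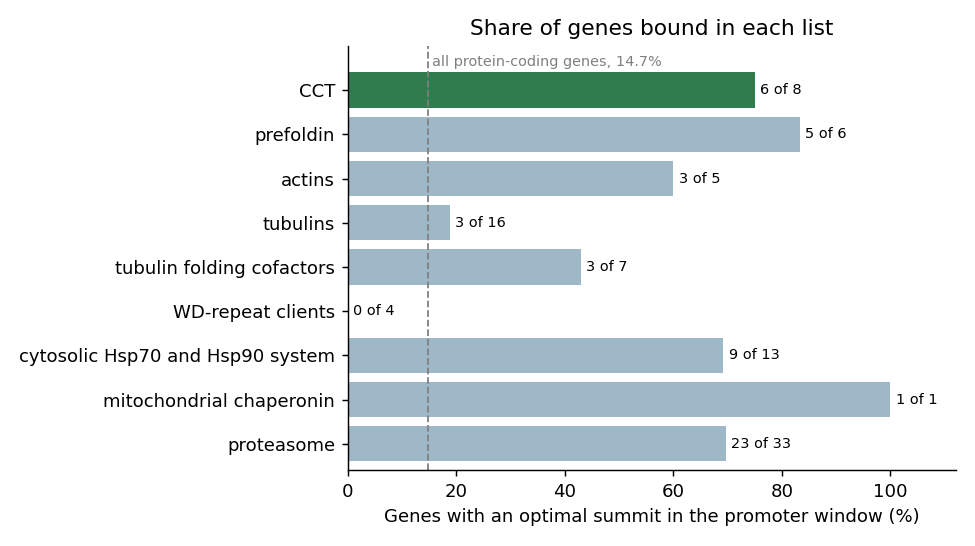
Percent of genes with an optimal summit in the promoter window for the CCT genes and each list of partners, clients and the proteasome, with bound and total genes beside each bar. The dashed line is the 14.7% of all protein-coding genes; the CCT bar (6 of 8) stands at 75.0%, and the tubulin bar (3 of 16) near the line. For genes with a coding neighbour on the other strand, which all 8 CCT genes have, the share is 29.9%. With a summit counted for its closest 5′ end alone, 2 CCT genes and 14 of the 52 partner and client genes were bound. Under that rule the share of all protein-coding genes was 12.4%.

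Of 6607 other protein-coding genes with a window peak in both replicates, those with ranks most like cct-1 and cct-4 were found by the summed absolute log2 difference of rank over the 2 replicates. For cct-1 they were mig-5, which shares the peak and so differs by 0.00, and F08G2.5, with ranks 61 and 83 and a summed difference of 0.08. For cct-4 they were nst-1, which shares its candidate, and oac-20, with ranks 7807 and 7486 and a summed difference of 0.04.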

How the data were processed

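The authors deposited peak lists in narrowPeak layout. Per the listings deposited with them, candidates were derived from each replicate's or both replicates' alignments and a control, and the optimal list from these by a threshold on the irreproducible discovery rate. The sources used here name no aligner, caller or version for them. The signal per peak is the authors' deposited value, and their q-value is deposited as −log10. Calling sets which weak sites are listed, and candidates reach into background.

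The lists in ce11 were used, in which no peak passed a chromosome end of WBcel235; those in ce10 were not, since no coordinate was converted. Genes came from Ensembl release 115, sequence and product names from RefSeq's WBcel235. Python 3.11.15 with pandas 2.3.3 computed windows, ranks and motif matches. The assignment of peaks to windows was checked on simulated peaks, and the ranks and motif matches were not. Replicates were matched by the strongest candidate overlapping a peak by 1 bp or more. The members and lists were chosen with earlier results of these data known. Named genes are the members, genes sharing their peaks, up to 3 bound genes of highest signal per list, all bound or listed ones where few, and the most similar in rank. For hsp-10, 1 of 53 listed symbols, no gene of that symbol was in the annotation. No paired analysis was possible because there is 1 group.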

Additional observations from a re-analysis of the deposited data

How the results depend on the processing

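The count of 6 bound CCT genes was 6 with a window of 500 bp upstream to 100 bp downstream (11.6% of protein-coding genes). It was 6 with 2000 bp upstream (18.7%), by overlap of the peak (15.6%) and from the outermost 5′ end alone (13.7%). Among the 2066 strongest optimal peaks it was 4 (cct-1, cct-6, cct-7 and cct-8, against 8.59% of protein-coding genes). With replicate 1 left out it was 6 (14.3%), and with replicate 2 left out it was 5 (14.7%). Assigning a summit, however distant, only to its closest 5′ end left 2 CCT genes bound (12.4% of protein-coding genes), cct-2 and cct-7. The summit given to cct-7 was then another, 3484 bp downstream of its 5′ end and past its 3′ end, so not a promoter peak. Under that rule, by its construction, 0 CCT genes shared a peak with a neighbour, and 14 rather than 24 partner and client genes were bound. With 1 replicate left out, the rank ran from 60 to 80 for cct-1, 2707 to 6099 for cct-2, 7466 to 8011 for cct-4, 2865 to 3309 for cct-5 and 1385 to 1733 for cct-6; the pooled rank of cct-4 was 6510. The motif TTCNNGAA was at 3 summits, at 5 within 100 bp, and at 2 to 3 with 1 replicate left out; GAANNTTC was at 1, at 3 within 100 bp and at 1 to 2. No paired analysis was possible because both samples belong to 1 group. Without depths, whether cct-4 or cct-3 would pass with more reads cannot be given.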

Other observations

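Some of the windows at CCT summits share longer runs of letters, found after the sequences were seen by comparing all 21 pairs of windows on both strands with at most 1 mismatch. The longest was TGGGTCTCGNCACGA (N marks the mismatch), shared by cct-1, 10 bp upstream of the summit at its first base, and by cct-4, 31 bp upstream. Windows of 6 of the 4133 optimal summits (0.145%) hold it, at pqn-59 with taf-4, rpl-14, rpl-31 with sac-2, lias-1, gtbp-1 with K08F4.3, and cct-1 with mig-5. The next, TGGGTCTCNCCACG, was shared by cct-4 and, on the opposite strand, by cct-6, and is in the windows of 6 optimal summits, 4 of them those at pqn-59, rpl-14, rpl-31 and lias-1 and the others at ndub-8 with cup-14 and at cct-6 with alh-9. With 21 pairs compared and no test made, these are descriptions of letters.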
